A study of Homo sapiens with 34 samples.

Results

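The genes described here were 10 heat shock genes, namely the transcription factor gene *HSF1* and the chaperone genes *HSPA1A*, *HSPA1B*, *HSPA8*, *HSPH1*, *DNAJB1*, *HSP90AA1*, *HSP90AB1*, *HSPD1* and *HSPE1*. They were found by symbol in the locus annotation, where 18 of the 28690 loci held one of them. The 10 loci on primary chromosomes all carried signal, and the other 8 were copies of *HSPA1A* and *HSPA1B* on alternate contigs of chromosome 6 that were listed at 0 in all 24 libraries. RNA-seq was performed in human osteosarcoma U2OS cells with a *Bmal1*:*luc* reporter, in which the *Bmal1* promoter drives luciferase, after a dexamethasone shock and culture with 5 mM 6-aminonicotinamide (6AN), an inhibitor of the pentose phosphate pathway, or with DMSO as control. Each condition had 1 library at each of 12 time points, labelled every 4 hr from CT00 to CT44, and ChIP-seq was performed after 24 hr in either condition. In the hg38 coordinates of the deposited annotation, *HSF1* lay at chr8:144291588-144326919, *HSPA1A* at chr6:31815514-31817942, *HSPA1B* at chr6:31827735-31830254, *HSPA8* at chr11:123057492-123062335 and *HSPH1* at chr13:31134974-31162388. *DNAJB1* lay at chr19:14514764-14529322, *HSP90AA1* at chr14:102080738-102139749 and *HSP90AB1* at chr6:44246166-44253888, and *HSPD1* and *HSPE1* were both given chr2:197486584-197553699. All groups share the same reporter line, the dexamethasone shock is stated for the RNA-seq time course, time points are not replicates, and the study extracted RNA in triplicate without stating whether the extracts were pooled.

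The heat shock response is a protective program in which misfolded protein releases *HSF1* from its chaperone partners, and the freed factor trimerizes and binds heat shock elements, which are repeats of the bases GAA in alternating orientation. HSP70 proteins bind unfolded stretches of protein, J proteins such as *DNAJB1* deliver the client and trigger ATP hydrolysis, and HSP110 proteins such as *HSPH1* exchange the nucleotide so that the client is released. HSP90 proteins act later, on nearly folded clients that include many signaling proteins, and the HSP60 and HSP10 chaperonin folds proteins imported into the mitochondrial matrix. *HSPA8* and *HSP90AB1* are the constitutive HSP70 and HSP90 of the cytosol, and *HSPA1A*, *HSPA1B* and *HSP90AA1* are their stress-inducible relatives.

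RefSeq promoter windows (GRCh38.p14, from 250 bases before to 50 bases after an annotated start) were available for 9 of the 10 genes in 15 windows. A heat shock element of 3 units, which is GAA, 2 bases of any kind, TTC, 2 bases of any kind and GAA, or its reverse complement, was searched on both strands. It was found in 0.490% of all 35116 windows and in windows of *HSPA8*, *HSP90AA1*, *HSP90AB1* and *HSPD1*. The stretches of 30 bases that hold these elements are shown because this element is the rarest of the motifs searched, found in 4 of the 9 genes, with the elements in capitals, each from 5′ to 3′ on the strand of its gene. Those of *HSP90AA1*, *HSP90AB1* and *HSPD1* lie within the bounds of the RefSeq gene because another start is annotated farther upstream. For *HSPA8* the windows gave no start farther upstream. Its first stretch lies beyond the deposited locus, which ends at 123062335, and its second lies within it. Whether the bases are exonic or intronic was not looked up.
HSPA8 at chr11:123062346-123062375: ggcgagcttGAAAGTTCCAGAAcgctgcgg
HSPA8 at chr11:123062171-123062200: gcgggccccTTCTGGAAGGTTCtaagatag
HSP90AA1 at chr14:102087112-102087141: ggagggttcTTCCGGAAGGTTCgggaggct
HSP90AB1 at chr6:44247769-44247798: gggagcaggTTCTGGAAGATTCatgggctc
HSP90AB1 at chr6:44247822-44247851: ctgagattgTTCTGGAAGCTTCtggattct
HSPD1 at chr2:197500061-197500090: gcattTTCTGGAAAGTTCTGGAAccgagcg
The genes *HSPA8*, *HSP90AA1* and *HSPD1* are on the minus strand, and *HSP90AB1* is on the plus strand. The *HSPD1* stretch held 2 overlapping elements that together make 4 units.

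A shorter element of 2 units, GAANNTTC or TTCNNGAA, was found in 13.5% of all windows and is contained in every element of 3 units. Only exact matches were searched, and elements with a mismatched unit were not looked for. Among exact matches, the element of 2 units was the longest form in the windows of *HSPA1A*, *HSPA1B* and *DNAJB1*. The windows of *HSPH1* and *HSPE1* held no exact match of either form. *DNAJB1* carried 2 elements of 2 units ahead of its start at position 14518397 of chromosome 19, on the minus strand. *HSPA1A* and *HSPA1B* each carried 1, about 100 bases ahead of their starts on the plus strand of chromosome 6.
DNAJB1 at chr19:14518456-14518485: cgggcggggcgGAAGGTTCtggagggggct
DNAJB1 at chr19:14518426-14518455: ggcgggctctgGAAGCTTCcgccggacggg
HSPA1A at chr6:31815393-31815512: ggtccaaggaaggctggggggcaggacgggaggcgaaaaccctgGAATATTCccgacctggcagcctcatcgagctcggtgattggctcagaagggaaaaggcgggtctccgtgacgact
HSPA1B at chr6:31827588-31827707: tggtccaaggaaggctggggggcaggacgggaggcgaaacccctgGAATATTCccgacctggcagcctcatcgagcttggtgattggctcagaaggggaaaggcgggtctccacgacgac
The last 2 stretches, each of 120 bases and upstream of the gene, had 114 identical bases, 5 mismatches and 2 gap positions in a global alignment. *HSPA1A* and *HSPA1B* are known as near-identical copies, so that reads may be divided between them in ways that the FPKM values do not show, and the values of either gene are uncertain on their own. Their transcripts were not compared here.

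*HSPD1* and *HSPE1* are transcribed away from each other, and their starts are separated by 104 bases on chromosome 2. This shared promoter, shown on the plus strand, contained the E-box CACGTG, the sequence that BMAL1 and CLOCK bind, 17 to 22 bases ahead of the *HSPE1* start. The E-box was found in 7.26% of all windows and in no other window of the 9 genes.
HSPD1 and HSPE1 at chr2:197500275-197500378: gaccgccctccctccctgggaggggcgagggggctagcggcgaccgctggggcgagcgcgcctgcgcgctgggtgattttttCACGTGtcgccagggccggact

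The 10 genes spanned almost 2 orders of abundance, in FPKM, which is per length and thus comparable between genes of one table. In control cells, *HSP90AB1* was the most abundant at 1391 ± 114 FPKM (mean ± SD over 12 time points). It was followed by *HSPA8* at 547 ± 107 and *HSP90AA1* at 390.5 ± 46.7, whose ranges over time overlapped each other. *HSPD1* at 225 ± 20 and *HSPE1* at 206 ± 15 came next and overlapped. *DNAJB1* at 99.2 ± 10.2 and *HSF1* at 93.1 ± 8.8 overlapped too, then came *HSPH1* at 40.4 ± 7.6. The inducible HSP70 genes were the lowest, with *HSPA1A* at 18.3 ± 5.2 and *HSPA1B* at 16.7 ± 3.3 FPKM and overlapping ranges. The constitutive *HSPA8* thus exceeded either inducible HSP70 gene at every hour, and the ratio of *HSPA1A* to *HSPA8* within a library was between 0.0238 and 0.0404 in control cells.

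With 6AN the order was the same except that *HSF1*, at 133 ± 11 FPKM, moved above *HSPE1* and *DNAJB1*, and that *HSPA1A* and *HSPA1B* changed places with overlapping ranges. *HSF1* overlapped *HSPE1*, which was at 130 ± 21 FPKM, and *DNAJB1* was lower than both at 70.1 ± 6.8 FPKM.

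**Figure D1:**
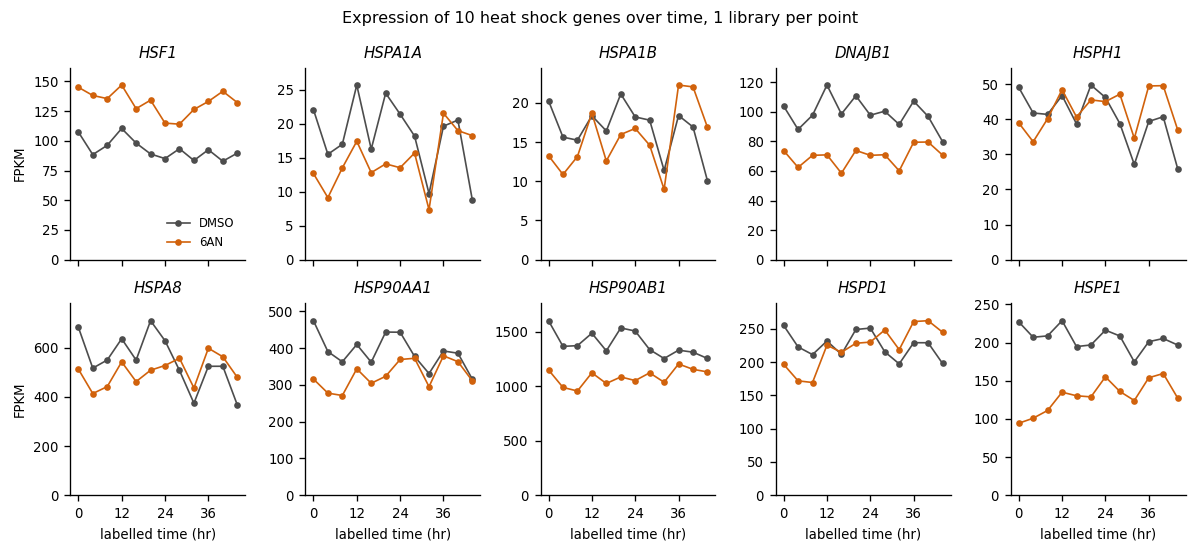
FPKM of the 10 genes (vertical axes, each from 0) against labelled time in hr, with 1 library per point, control (DMSO) in gray and 6AN in orange. *HSF1* lay higher in 6AN at every hour, and *HSPE1*, *HSP90AB1*, *DNAJB1* and *HSP90AA1* lay lower at every hour. *HSPA8*, *HSPH1*, *HSPA1A* and *HSPA1B* dipped together at CT32 in both conditions and at CT44 in DMSO. All genes except *HSF1* had their lowest DMSO value at CT32 or CT44.

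Levels in 6AN and DMSO were compared hour by hour. The authors normalized the 2 tables separately, so a difference between them was described and not tested, and it was set beside the same measure for all 13979 loci with a mean of at least 1 FPKM, whose median log2 difference was -0.04. For a locus to be counted as higher or lower without overlap, all 12 values of one condition had to exceed all 12 of the other, which was the case for 5.89% of all loci in the higher and 10.3% in the lower direction. After each library was centred on its median, the shares were 7.11% and 8.93%. Of the 10 genes, *HSF1* was higher without overlap, *HSPE1*, *HSP90AB1* and *DNAJB1* were lower without overlap, and the other 6 overlapped. The median over the 10 genes was -0.18 on the log2 scale. In bulk RNA of a cell line, a change in the share of cells that express a gene cannot be told apart from a change in each cell.

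*HSF1*, the regulator itself, had FPKM between 82.9 and 110.4 with a median of 91.1 in DMSO. In 6AN its values lay between 114 and 147 with a median of 134. It was higher in 6AN at 12 of 12 hours, by 0.51 ± 0.13 on the log2 scale (mean ± SD of 12 hourly differences), or 1.42-fold, and it remained without overlap when each library was centred on its median. Of the other 9 genes, 8 had a mean difference below 0, among them *HSPD1* at -0.02, which was 0.01 after centring. The ratio of *HSF1* to *HSP90AB1* within a library was chosen after the values were seen and does not depend on either table's scale. It was between 0.0564 and 0.0742 in DMSO and between 0.101 and 0.142 in 6AN. *HSF1* was higher and *HSP90AB1* lower without overlap, so this ratio had to separate and adds nothing to their levels. The ratio of *HSF1* to *HSPA8* overlapped, at 0.125 to 0.244 in DMSO and 0.205 to 0.335 in 6AN. That ratio was higher in 6AN at 12 of 12 hours.

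*HSPE1*, the HSP10 lid of the mitochondrial chaperonin, had the largest mean difference of the 10 genes. Its FPKM was between 175 and 229 with a median of 206 in DMSO. In 6AN it was between 94.4 and 159.6 with a median of 129.6, lower at 12 of 12 hours by 0.67 ± 0.27 on the log2 scale, or 1.59-fold. *HSPD1*, the HSP60 barrel that is transcribed from the same promoter, did not share this difference. Its FPKM was between 197 and 255 with a median of 226 in DMSO and between 169 and 262 with a median of 227 in 6AN, lower at 6 hours and higher at 6.

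The ratio of *HSPE1* to *HSPD1* within a library, chosen after the values were seen, was between 0.791 and 0.994 with a median of 0.908 in DMSO. In 6AN it was between 0.480 and 0.674 with a median of 0.588. All 12 libraries of one condition thus lay apart from all 12 of the other, in a measure that the separate scaling cannot move. The *HSPE1* row of the tables also covered the read-through transcript *HSPE1-MOB4* and the gene *MOB4* downstream, and the *HSPD1* row also named *SNORA105B*, and the part of those transcripts in the ratio was not tested.

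**Figure D2:**
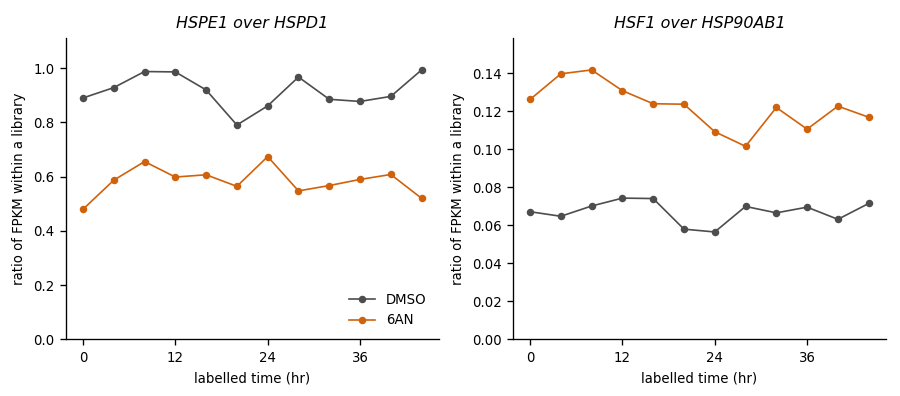
Ratio of FPKM within each library (vertical axes from 0) against labelled time in hr, for *HSPE1* over *HSPD1* and for *HSF1* over *HSP90AB1*, DMSO in gray and 6AN in orange. In both panels the 12 values of DMSO did not overlap the 12 values of 6AN. Medians in DMSO and 6AN were 0.908 and 0.588 for the first ratio and 0.0683 and 0.123 for the second. The second ratio had to separate, because the levels of its genes lay apart in opposite directions.

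Both cytosolic HSP90 genes were lower in 6AN at 12 of 12 hours, as 20.4% of all loci were, while 13.0% were higher at all 12. For *HSP90AB1*, FPKM was between 1256 and 1603 with a median of 1352 in DMSO. It was between 957 and 1205 with a median of 1105 in 6AN, a mean log2 difference of -0.35 ± 0.15 with no overlap. For *HSP90AA1*, FPKM was between 315 and 474 with a median of 388 in DMSO and between 271 and 379 with a median of 319.5 in 6AN. Its mean log2 difference was -0.25 ± 0.20 with overlapping ranges, and the sign was kept at only 9 of 12 hours when each library was centred on its median.

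*DNAJB1*, the J protein that partners HSP70 in disaggregation, had FPKM between 79.9 and 118.1 with a median of 98.1 in DMSO. In 6AN it was between 58.5 and 79.6 with a median of 70.8, lower at 12 of 12 hours by 0.49 ± 0.16 on the log2 scale, or 1.41-fold. The highest value in 6AN and the lowest in DMSO nearly touched, and they overlapped after centring. *HSPH1*, the HSP110 exchange factor, had FPKM between 25.9 and 49.7 with a median of 41.0 in DMSO and between 33.6 and 49.5 with a median of 42.8 in 6AN. It was higher at 7 hours and lower at 5, so no direction was visible.

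For *HSPA8*, FPKM was between 367 and 709 with a median of 537 in DMSO and between 413 and 597 with a median of 510.4 in 6AN. For *HSPA1A*, FPKM was between 8.75 and 25.7 with a median of 18.9 in DMSO and between 7.35 and 21.5 with a median of 13.8 in 6AN. For *HSPA1B*, it was between 10.1 and 21.1 with a median of 17.4 in DMSO and between 8.96 and 22.3 with a median of 15.3 in 6AN. All 3 HSP70 genes overlapped widely between conditions, with mean log2 differences of -0.10 ± 0.29, -0.30 ± 0.49 and -0.11 ± 0.38. *HSPA1A* was lower in 6AN at 10 of 12 hours, *HSPA1B* at 8 and *HSPA8* at 7.

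**Figure D3:**
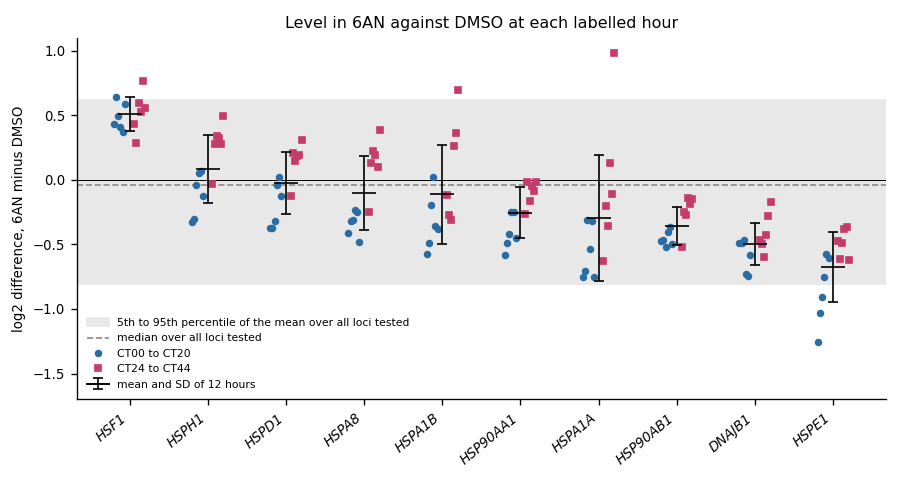
Difference of log2(FPKM + 1), 6AN minus DMSO, at each labelled hour for the 10 genes (horizontal axis, ordered by their means), with CT00 to CT20 as blue circles and CT24 to CT44 as magenta squares. Black bars are the mean ± SD of 12 hours, the gray band is the 5th to 95th percentile (-0.81 to 0.62) of the means of all 13979 loci and the dashed line is their median of -0.04. *HSF1* lies highest and *HSPE1* lowest, and for 9 of the 10 genes the blue circles lie lower on average than 0.

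The differences were not steady over the time course. From CT00 to CT20, 9 of the 10 genes were lower in 6AN on average, with a median of -0.37 on the log2 scale. From CT24 to CT44, 5 of 10 were, with a median of 0.04. Over all loci the medians were -0.043 and -0.035 in these periods. *HSPA8* was lower at 6 of 6 hours in the first 24 hr, by 0.33 ± 0.10 on the log2 scale, and higher at 5 of 6 hours in the second, by 0.13 ± 0.21. *HSPD1* was at -0.20 ± 0.18 and then at 0.15 ± 0.15, and *HSPH1* at -0.11 ± 0.17 and then at 0.28 ± 0.17. *HSF1* was at 0.49 ± 0.11 and 0.53 ± 0.16. *HSPE1*, *HSP90AB1*, *DNAJB1* and *HSP90AA1* were lower at all 6 hours of both periods, by smaller amounts in the second. Their means were -0.86 and then -0.49, -0.46 and then -0.25, -0.58 and then -0.41, and -0.41 and then -0.10.

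Linear trends were then fitted within each table, together with a cosine and sine of 24 hr, with limma on log2(FPKM + 1). In control cells the slopes of all 10 genes were negative, between -0.43 for *HSPA1A* and -0.10 for *HSPE1* per 24 hr, while 50.4% of all loci had a positive slope. The genes share libraries and co-vary, so that these signs are not independent. Of the 10, 0 passed an adjusted p of 0.05 over all loci, while 4 had an unadjusted p under 0.05, as 19.96% of all loci did. Among all loci, 2.89% were called with a falling and 2.58% with a rising trend in DMSO. After *HSPA1A* the most negative slopes were those of *HSPA8*, at -0.38 (SE 0.12, limma adjusted p = 0.118), and *HSPH1*, at -0.36 (SE 0.13, adjusted p = 0.154), and that of *HSPA1B* was -0.28. These slopes leaned on the libraries with low values described further on. Without CT44 they were -0.16 for *HSPA1A*, -0.23 for *HSPA8*, -0.21 for *HSPH1*, -0.08 for *HSPA1B*, -0.07 for *HSP90AA1*, -0.05 for *DNAJB1* and -0.03 for *HSPD1*, each smaller by over 1.5 times, and without CT32 that of *HSPE1* was -0.05. Without CT32 and CT44 together, chosen after seeing the data, 9 of 10 slopes were negative with a median of -0.05, against -0.17 with all time points, and those of *HSPA1A* and *HSPA1B* were -0.0048 and 0.0101.

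In 6AN 9 of the 10 slopes were positive, against 49.5% of all loci, and that of *HSF1* was -0.11 (SE 0.06, limma adjusted p = 0.188). *HSPD1* rose by 0.26 log2 units per 24 hr (SE 0.07, limma adjusted p = 0.0239), a direction called for 10.8% of all loci. In FPKM, *HSPD1* in 6AN was at most 197 from CT00 to CT08 and at least 215 from CT12 to CT44. *HSPE1* had a similar slope of 0.25 (SE 0.09), which did not pass, with an adjusted p of 0.076 from limma. The call for *HSPD1* was lost without CT28, with a slope of 0.21 and a limma adjusted p of 0.0528.

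**Figure D4:**
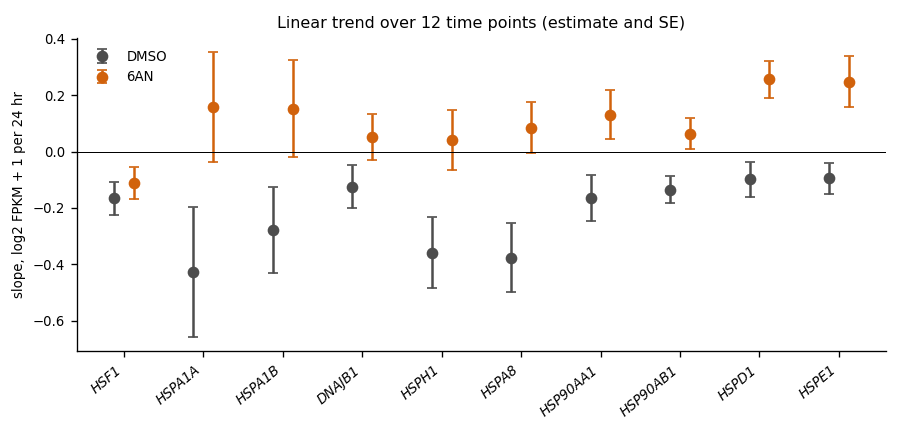
Linear slope of log2(FPKM + 1) per 24 hr (points) with its SE (bars) for each of the 10 genes within DMSO (gray) and within 6AN (orange), from limma fits of 12 time points each. All 10 slopes are below 0 in DMSO and 9 of 10 are above 0 in 6AN, with *HSF1* below 0 in both.

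The difference between the trends, which a constant scale between the tables cannot affect, was positive for all 10 genes, against 49.6% of all loci. The genes share libraries and co-vary, so that the 10 signs are not independent. It ranged from 0.05 for *HSF1* to 0.59 for *HSPA1A* per 24 hr with a median of 0.35. The difference was called for *HSPD1*, at 0.35 (SE 0.09, limma adjusted p = 0.0263), as it was upward for 3.18% and downward for 4.61% of all loci. *HSPE1* at 0.34 (SE 0.11, limma adjusted p = 0.0613) and *HSPA8* at 0.46 (SE 0.16, adjusted p = 0.0776) did not pass, and 6 of the 10 genes had an unadjusted p under 0.05, as 22.3% of all loci did. For *HSPD1* the call was lost without CT00, CT04, CT28 or CT32, with differences of 0.36, 0.34, 0.31 and 0.35 and limma adjusted p of 0.071, 0.0509, 0.0872 and 0.0561. Without CT32 and CT44 together, chosen after seeing the data, it was 0.34 with an adjusted p of 0.0685, while that of *HSPE1* was 0.44 with 0.0264, and all 10 differences were positive with a median of 0.34. The difference for *HSPA1A* was 0.30 without CT44.

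A 24 hr rhythm was called for 0 of the 10 genes by limma in DMSO, in 6AN or in the difference between them, and for 0 of them at an unadjusted p under 0.05. Fitted amplitudes were between 0.03 and 0.22 log2 units in DMSO, with limma adjusted p between 0.844 and 0.981. They were between 0.03 and 0.26 in 6AN, with adjusted p between 0.751 and 0.991. Over all 13979 loci the same test called 1 rhythm in DMSO (0.00715%) and 0 in 6AN (0.0%), with 940 and 1103 loci at an unadjusted p under 0.05. The difference of rhythms was called for 9 loci (0.0644%). In simulated data with the spread of these loci, 79 of 100 DMSO rhythms with an amplitude of 0.5 were recovered, an amplitude larger than that of any of the 10 genes.

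The HSP70 genes and *HSPH1* had low values at single time points. In DMSO, *HSPA1A* was at 18.2 FPKM at CT28, 9.72 at CT32, 19.6 at CT36, 20.5 at CT40 and 8.75 at CT44. *HSPA8* was at 507, 374, 524, 524 and 367 FPKM at the same 5 time points. In 6AN, *HSPA1A* was at 15.7, 7.35, 21.5, 19.0 and 18.2 FPKM. It was thus low at CT32 in both conditions and at CT44 in DMSO. *HSP90AA1* in 6AN was at 372, 295 and 379 FPKM at CT28, CT32 and CT36. *HSPH1* in 6AN was at 49.5 FPKM at CT40 and 37.0 at CT44. The CT32 libraries were the most deeply sequenced of both tables, at 1.31 and 1.56 times the median depth. The DMSO library of CT44 was at 0.739 times, the 6AN library of CT40, where these genes were not low, was at 1.52 times, and the part of depth in these values was not tested.

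*HSPA1A* had the largest spread over time of the 10 genes. Its SD over the 12 time points was 0.45 log2 units in DMSO, higher than in 93.7% of the 7560 loci with a mean of at least 10 FPKM, whose median SD was 0.12. *HSPA1B* (0.30), *HSPA8* (0.30) and *HSPH1* (0.29) were higher than 91.9%, 91.9% and 91.7% of these loci. *HSPE1* varied less than most of them in DMSO, with an SD of 0.10 at the 35.6th percentile, and more in 6AN, with 0.24 at the 84.0th percentile. *HSP90AB1*, the most abundant of the 10, had the smallest SD in 6AN at 0.10.

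Pairs of genes that share a promoter, a complex or their sequence were compared over the 12 time points within each table, in 10 relations. All 10 passed a two-sided permutation test of Pearson's r and of Spearman's rho after Benjamini-Hochberg adjustment over the 10. Neighboring time points are not independent, which makes these p-values too small. Co-variation was not particular to such pairs. In DMSO, the mean of *HSPD1* and *HSPE1* had an r of 0.458 with *HSF1* and 0.601 with *DNAJB1*. Its r was between 0.819 (*HSPA1B*) and 0.924 (*HSP90AA1*) with the other genes of the 10, as a description without a test. *HSPA8* and *HSPH1*, the constitutive HSP70 and its exchange factor, had the highest r in DMSO at 0.979 (rho 0.881, permutation adjusted p = 5e-05 and 0.00075 for n = 12). In 6AN their r was 0.902 (rho 0.895, permutation adjusted p = 0.00028 and 0.00075 for n = 12). Without the 2 time points farthest from the median, r was 0.949 and 0.817. The ratio of *HSPH1* to *HSPA8* within a library was between 0.0701 and 0.0808 with a median of 0.0735 in DMSO and between 0.0760 and 0.0909 with a median of 0.0850 in 6AN. It was higher in 6AN at 12 of 12 hours, with overlapping ranges.

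*HSP90AA1* and *HSP90AB1* had an r of 0.931 in DMSO (rho 0.867, permutation adjusted p = 5e-05 and 0.00092 for n = 12) and of 0.766 in 6AN (rho 0.720, permutation adjusted p = 0.0055 and 0.0126 for n = 12), or 0.897 and 0.589 without the 2 farthest time points. *HSPA1A* and *HSPA1B* had an r of 0.959 and 0.942 (rho 0.888 and 0.944, permutation adjusted p = 5e-05 and 5e-05 for r and 0.00075 and 0.0006 for rho, n = 12), and the part of shared reads was not tested. *HSPA1A* and *DNAJB1* had an r of 0.860 in DMSO and 0.779 in 6AN (rho 0.825 and 0.713, permutation adjusted p = 0.0006 and 0.0055 for r and 0.0022 and 0.0133 for rho, n = 12). For *HSPA1A* with *HSPA1B* and with *DNAJB1*, r without the 2 farthest time points was 0.808 and 0.819 in DMSO and 0.879 and 0.624 in 6AN. The unadjusted permutation p was 2e-05 for the r of 4 of the 10 relations, the smallest that 100000 resamples can give.

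The chaperonin pair had the lowest r of the 5 pairs in DMSO. *HSPD1* and *HSPE1* had an r of 0.649 in DMSO (rho 0.622, permutation adjusted p = 0.0205 and 0.0349 for n = 12), which fell to 0.414 without CT32 and CT44, so that it rests on those samples. In 6AN, where both slopes were positive, r was 0.825 (rho 0.825, permutation adjusted p = 0.0037 and 0.0022 for n = 12), and 0.809 without the 2 farthest time points.

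The loci most like the inducible chaperones were found by the Pearson r of their centred log2 values with the mean of *HSPA1A*, *HSPA1B*, *DNAJB1* and *HSPH1* over the 24 libraries, as a description without a test, since the values of a library share its depth. Among 10080 other loci with a mean of at least 5 FPKM, the median r was 0.08. The 5 with the highest r were *FKBP4* (0.916), *AHSA1* (0.895), *DNAJA1* (0.888), *CACYBP* (0.851) and *CHORDC1* (0.850). *FKBP4* is an immunophilin cochaperone of HSP90, *AHSA1* stimulates the HSP90 ATPase, *DNAJA1* is a cytosolic J protein, *CACYBP* binds Siah ligase complexes and resembles the HSP90 cochaperone *SUGT1*, and *CHORDC1* is an HSP90 cochaperone. The DMSO libraries alone gave r between 0.856 and 0.976 for these 5 and the 6AN libraries alone between 0.750 and 0.896.

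**Figure D5:**
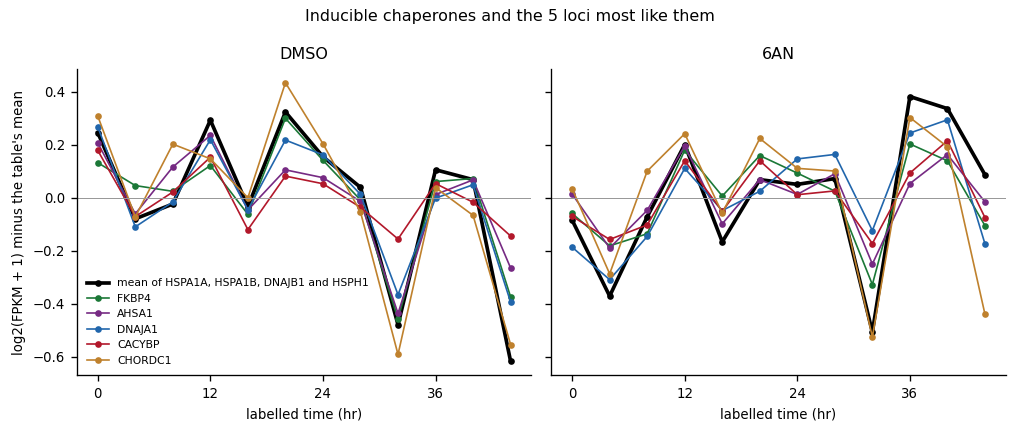
Centred log2(FPKM + 1) against labelled time in hr, in DMSO (left) and 6AN (right), for the mean of *HSPA1A*, *HSPA1B*, *DNAJB1* and *HSPH1* (thick black line) and the 5 loci most like it. All 6 lines lay below 0 at CT32 in both conditions and at CT44 in DMSO, where the mean of the 4 chaperones was -0.62.

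*HSF1*, as a gene, was less like them. Its r with the mean of the 4 inducible chaperones was 0.43 in DMSO and 0.14 in 6AN. For the mean of *HSPD1* and *HSPE1*, the 5 most like loci were *IKBIP* (0.885), *TAF7* (0.879), *EIF4A2* (0.873), *CYFIP2* (0.871) and *CALR* (0.857). Of these, *CALR* encodes the chaperone calreticulin of the endoplasmic reticulum, *EIF4A2* a translation initiation helicase and *TAF7* a subunit of TFIID. The median r over all loci compared was 0.05.

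Other genes of the chaperone network were taken from 7 lists with 71 genes that passed the filter. Without overlap, 12 of the 71 were lower in 6AN and 2 were higher, against 10.3% and 5.89% of all loci. After centring 10 and 3 were, against 8.93% and 7.11%. *HSBP1*, which binds the *HSF1* trimer and represses it, was lower, at 71.2 to 82.9 FPKM in 6AN against 100.8 to 124.8 in DMSO, a mean log2 difference of -0.51 ± 0.08. *HSF2* and *HSF4* overlapped between conditions, with -0.10 ± 0.22 and 0.25 ± 0.36.

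Among the other HSP70 and HSP110 genes, 4 of 7 were tested. *HSPA14*, a ribosome-associated HSP70, and *HSPA4*, an HSP110 exchange factor, were lower without overlap by 0.53 ± 0.09 and 0.41 ± 0.16 on the log2 scale. *HSPA12A* was higher without overlap by 0.62 ± 0.13, at 7.37 to 9.90 FPKM in 6AN against 4.81 to 5.70 in DMSO. *HSPA6*, a strictly inducible HSP70 with a low basal level, was under the filter.

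Of 10 cytosolic J proteins, *DNAJC9*, which also chaperones histones, was the only one lower without overlap, by 0.81 ± 0.21 on the log2 scale. *DNAJB5* was lower at 12 of 12 hours, by 0.51 ± 0.19, with overlapping ranges. *DNAJB2* and *DNAJB5* fell over time in DMSO, by 0.48 (SE 0.08, limma adjusted p = 0.00996) and 0.37 (SE 0.06, limma adjusted p = 0.00695) log2 units per 24 hr. Without CT32 and CT44 together the slopes were -0.36 and -0.32 with limma adjusted p of 0.0541 and 0.0632. Of the 21 HSP70 and HSP90 cochaperones, *BAG3*, which couples HSP70 to selective autophagy, and *PTGES3*, the HSP90 cochaperone p23, were lower without overlap, by 0.66 ± 0.15 and 0.33 ± 0.11. *ST13*, which stabilizes the ADP state of HSP70, was higher by 0.20 ± 0.14 at 11 hours and rose in 6AN by 0.26 log2 units per 24 hr (SE 0.04, limma adjusted p = 0.0019). It was the only one of these cochaperones called as rising in 6AN, and 4 fell, namely *BAG3* by 0.30, *BAG1* by 0.23, *SUGT1* by 0.19 and *UNC45A* by 0.14 log2 units per 24 hr, with limma adjusted p between 0.0225 and 0.0391. Each of these 4 calls was lost without CT00, among other hours.

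Among the small heat shock proteins, 5 of 9 were tested. *HSPB1*, the HSP27 gene, was at 458 to 684 FPKM in 6AN against 689 to 1173 in DMSO, lower by 0.74 ± 0.22 on the log2 scale, and the ranges overlapped only after centring. *HSPB11*, which is an intraflagellar transport protein despite its name, was lower by 0.55 ± 0.19. *HSPB8* was higher at 12 of 12 hours by 0.55 ± 0.28 with overlapping ranges. *CRYAB*, the lens chaperone alpha B crystallin, fell over time in both conditions, by 0.42 log2 units per 24 hr in DMSO (SE 0.06, limma adjusted p = 0.0057) and by 0.41 in 6AN (SE 0.09, limma adjusted p = 0.0097). *HSPB2* and *HSPB8* also fell in DMSO, by 0.40 (limma adjusted p = 0.00988) and 0.33 (limma adjusted p = 0.0496). Without CT32 and CT44 together the DMSO slopes of *CRYAB*, *HSPB2* and *HSPB8* were -0.37, -0.40 and -0.28 with limma adjusted p of 0.0643, 0.0815 and 0.267, and the call for *HSPB8* was lost for 10 of the 12 hours left out singly.

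Of 14 mitochondrial chaperones and proteases, 0 were lower without overlap and *LONP1*, the matrix protease, was higher, at 25.2 to 36.5 FPKM in 6AN against 20.3 to 25.1 in DMSO. *AFG3L2*, a protease of the inner membrane, was higher at 12 of 12 hours by 0.23 ± 0.06, and its ranges overlapped until the libraries were centred. *HSPA9*, the mitochondrial HSP70, was at 72.2 to 111.2 FPKM in 6AN and at 79.5 to 89.8 in DMSO. It rose in 6AN by 0.35 log2 units per 24 hr (SE 0.03, limma adjusted p = 0.00020), and its trend differed from that in DMSO by 0.37 (SE 0.05, limma adjusted p = 0.00022). *CLPB*, a disaggregase of the intermembrane space, went the other way and fell in 6AN by 0.58 per 24 hr (SE 0.06, limma adjusted p = 0.00034).

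Of 14 subunits of the cytosolic chaperonin TRiC and of prefoldin, which fold actin and tubulin, *CCT2*, *CCT5*, *PFDN1* and *VBP1* were lower without overlap, with *CCT2* overlapping after centring. *PFDN1* and *VBP1* were lower by 0.49 ± 0.15 and 0.44 ± 0.09 on the log2 scale. A rise over time in 6AN was called for *PFDN2*, *PFDN5*, *PFDN6* and *CCT6A*, by 0.19 to 0.35 log2 units per 24 hr. The call for *PFDN5* was lost without CT00. Over all 71 genes, 8 rose and 10 fell in 6AN, where 10.8% and 13.1% of all loci did. In DMSO 1 rose and 5 fell, against 2.58% and 2.89% of all loci.

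ChIP-seq was read at the same genes, with 1 library for each antibody and condition and thus no replicate check. A BMAL1 interval centred within 10 kb of a RefSeq start was present for 6 of 9 genes in DMSO, where *HSF1* was not looked up, against 12.3% of 10106 tested genes. In 6AN it was present for 6 of 9, against 17.2%. CLOCK intervals were present for 0 of 9 in DMSO and 2 of 9 in 6AN, against 1.89% and 6.73%. Of these 9 genes, 5 had a mean of at least 100 FPKM, and *HSPA1A*, *HSPA1B*, *HSPH1* and *DNAJB1* did not. Among 618 genes with a mean of at least 100 FPKM the BMAL1 shares were higher than among all, at 22.5% in DMSO and 30.9% in 6AN. In 6AN, BMAL1 intervals were present for 5 of 11 mitochondrial chaperones and proteases, 5 of 12 TRiC and prefoldin genes and 6 of 16 cochaperones. Counts were 2 of 10 for cytosolic J proteins and 0 of 3 for other HSP70 and HSP110 genes. They were 2 of 3 for *HSF2*, *HSF4* and *HSBP1* and 1 of 2 for small heat shock proteins. In DMSO these counts were 4, 1, 3, 2, 0, 0 and 1, in the same order. *HSPD1* and *HSPE1* share their intervals and so do not count as separate observations.

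These intervals lay close to the elements shown above. The BMAL1 interval of 6AN at chr2:197500188-197500388 covered the *HSPD1* and *HSPE1* promoter with its E-box, and that of DMSO at chr2:197499974-197500174 covered the heat shock elements of *HSPD1*. At *HSP90AA1*, an interval at chr14:102087072-102087296 was found in both BMAL1 libraries and covered the heat shock element. At *HSPA8*, an interval at chr11:123062355-123062556, also found in both, overlapped the upstream element. At *HSP90AB1*, the BMAL1 interval of DMSO at chr6:44247759-44247959 covered both elements, and one of 6AN lay at another start, at chr6:44246879-44247079. *HSP90AB1* also had an interval at chr6:44257170-44257437, 9360 bases downstream of a start, that was found in both BMAL1 libraries and in the CLOCK library of 6AN.

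All 4 windows of these genes that held an element of 3 units thus touched a BMAL1 interval. Of 48 windows of other tested genes with such an element, 5 did (10.4%), and of all 14645 windows of other tested genes 13.3% did. The 5 belonged to *COMMD1*, which shares its promoter with *CCT4*, to *APTX* and *DNAJA1*, which share theirs, and to *CHORDC1*, a comparison chosen after the data were seen. *HSPA1A* had a BMAL1 interval in DMSO at chr6:31815147-31815347, *HSPA1B* had none within 10 kb, and *DNAJB1* had none of BMAL1 and 1 of CLOCK more than 20 kb away.

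In the authors' annotated lists of sites shared by BMAL1 and CLOCK, 1 site was assigned to one of the genes, *HSPH1*, in the list of 6AN. The site of 1000 bases at chr13:31161505-31162505 spans the start of *HSPH1*, on the minus strand. In tags per 10000000, BMAL1 signal there was 18.8 in DMSO (exact Poisson 95% interval 10.3 to 31.5) and 30.4 in 6AN (19.5 to 45.2). CLOCK signal was 8.58 (2.07 to 23.3) and 27.5 (14.4 to 47.5). Input was at 4.81 (2.75 to 7.81) and 8.81 (3.92 to 17.0), and was thus higher in 6AN as well. All 3 pairs of intervals, which cover counting error only, overlapped. Overlap of intervals is not a test, and a difference at this site was not tested. H3K4me3, a mark of active promoters, was at 245 (194 to 306) and 218 (177 to 265). H3K9ac was at 88.7 (46.5 to 153) and 90.4 (65.3 to 122).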

How the data were processed

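For RNA-seq of rRNA-depleted total RNA, the authors deposited FPKM per locus of a merged hg38 annotation, in 1 table per condition that was normalized across its own libraries, and the submitters' processing notes name TopHat and Cufflinks with no roles. For ChIP-seq with antibodies against BMAL1, CLOCK, H3K4me3 and H3K9ac and with input, 10 libraries in all, the authors gave a signal per site bound by BMAL1 and CLOCK, as tags in 1000 bases scaled to 10000000 tags, and a deposited score from HOMER for merged intervals. Peak positions rather than scores were used. All per-sample columns were used, and 0 were left out. Read totals were not in the tables used here, and steps between low FPKM values gave a depth relative to the table's median of 0.58 to 1.31 in DMSO and 0.70 to 1.56 in 6AN, so no counting error was given for FPKM. Genes that mark U2OS cells as osteosarcoma and mesenchymal were present (*RUNX2* 11.6 to 17.6 FPKM, *VIM* 660 to 1102), though *SPARC* was at 290 to 368 FPKM in DMSO and 87.2 to 185 in 6AN, *COL1A1* at 84.5 to 170.5 and 13.2 to 73.8, and *ALPL* at 4.83 to 9.59 and 2.79 to 4.99. *COL1A2* and *SP7* were near 0, the epithelial *EPCAM* reached 1.69, and markers of blood, fat and muscle were below 0.6 FPKM.

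Tests used limma 3.58.1 in R 4.3.3 on log2(FPKM + 1) for 13979 loci with a mean of at least 1 FPKM, with a linear term and a 24 hr cosine and sine, within each table or jointly for differences. P-values were adjusted by the Benjamini-Hochberg method over these loci with a threshold of 0.05. RAIN was not run. The p-values measure the spread around a curve through single libraries, and not the spread between cultures. In simulated data with 100 changed loci of 13979, 92 trends of 1 log2 unit per 24 hr in 6AN were recovered with 6 false calls. Correlations used 100000 permutations in SciPy 1.17.1, and alignment used Biopython 1.88. Promoter windows came from RefSeq. Intervals were Poisson intervals.

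The genes and lists were chosen with earlier results of these data known. All 10 genes were always named. Of a list, the rule allowed up to 4 genes called by a test within a table and up to 2 with the largest mean difference in each direction, and up to 5 loci by likeness. The alternatives were a pseudocount of 0.1, no filter, centring, a variance trend, a joint fit, a 28 hr cosine, the labelled hour as a block, either 24 hr period alone, each hour left out, and other distances for peaks.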

Additional observations from a re-analysis of the deposited data

Results flagged for a closer look

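Of the 81 genes examined, the 10 heat shock genes and 71 of the lists, 7 (8.64%) had a called difference of trends, near the 7.80% of all loci. For these the linear trend over time differed between 6AN and DMSO by the interaction term of limma at an adjusted p of at most 0.05 over all loci. The difference for *HSPD1*, the only one of the 10 heat shock genes among them, was 0.35 log2 units per 24 hr (adjusted p = 0.0263). *HSPA9*, its partner in the mitochondrial matrix, had 0.37 (adjusted p = 0.00022), and *CLPB*, the disaggregase, had -0.41 (adjusted p = 0.0079). *DNAJB2* had 0.46 (adjusted p = 0.0085), with slopes of -0.48 in DMSO and -0.02 in 6AN, and *ST13* had 0.23 (adjusted p = 0.0159). The TRiC subunits *CCT6A* and *CCT2* had 0.24 (adjusted p = 0.0259) and 0.26 (adjusted p = 0.0448). The call for *HSPA9* and *CLPB* was kept with each single hour left out, the one for *DNAJB2* was lost without CT44, and the one for *CCT2* was kept with only 3 of the 12 hours left out in turn. The calls for *ST13* and *CCT6A* were lost without CT00 or CT28. Without CT32 and CT44 together, the calls for *HSPA9* and *DNAJB2* were kept and the other 5 were lost.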

How the results depend on the processing

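Of the 10 heat shock genes, 1 was called with a trend in 6AN and 1 with a difference of trends, against 23.9% and 7.80% of all loci. With one fit over both tables the counts of called genes were 1 in DMSO (*HSPA8*) and 2 in 6AN, against 7.30% and 26.3% of all loci. Without CT32 and CT44, an alternative chosen after seeing the data, 2 were called in 6AN (*HSPD1* and *HSPE1*), against 15.3% of all loci. For the difference of trends, 3 were called when each library was centred on its median, where 9.02% of all loci were. With the labelled hour as a block 6 were called, namely *HSPD1*, *HSPE1*, *HSPA8*, *HSPH1*, *HSP90AA1* and *HSP90AB1*, against 8.88% of all loci (3.68% upward). By the check made, the labelled hours shared little. Deviations of the 2 libraries of an hour correlated over 0.1 at 1 of 12 hours, CT32 (between -0.02 and 0.18 over the hours). Of 12 libraries, 2 correlated best with their own hour. Whether the 10 genes alone share more by hour was not tested, and *HSPA1A*, *HSPA1B*, *HSPA8* and *HSPH1* dipped at CT32 in both conditions. With each hour left out in turn, the counts were 0 to 2 for the trend in 6AN, against 15.6% to 23.6% of all loci. They were 0 to 2 for the difference of trends, against 4.87% to 7.40%. For the trend in DMSO, the rhythms and the difference of rhythms they were 0. The median log2 difference of level, -0.18, turned to 0.0363 in the second 24 hr, where that of all loci was -0.0349. The slope of *HSPA1B* in DMSO, -0.28, was 0.0101 without CT32 and CT44. With single hours left out slopes in 6AN ranged from -0.0264 to 0.14 for *HSPH1*, lowest without CT28, and from -0.0196 to 0.107 for *DNAJB1*, lowest without CT16. The cause of these changes was not tested. Peaks within 1 kb or 50 kb of a start in place of 10 kb were found for 7 and 9 of 9 genes against 7, and for 21.9% and 40.5% of all tested genes against 25.7%. With 1 library per hour, a low library cannot be told apart from a low hour.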
